A study of Rattus norvegicus with 12 samples.

Results

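Expression of 10 matricellular and fibrosis-related glycoprotein genes was followed in cardiac fibroblasts depleted of Yap, Wwtr1 or both: Fn1, Postn, Tnc, Thbs1, Thbs2, Sparc, Spp1, Vcan, Cthrc1 and Tgfbi. The genes were chosen by name, as rows of the deposited table whose symbol was on the list. All 10 were among the 12271 genes listed, and all 10 passed the requirement of a mean of at least 10 normalized counts that left 11871 genes for testing. RNA was sequenced from primary cardiac fibroblasts of 2-day-old Sprague Dawley rats, taken from the ventricles and grown in serum. The cultures were transfected with siRNAs to Yap, to Wwtr1 or to both genes (the double knockdown), or with universal negative control siRNAs, in each case a pair of siRNAs per target at 25 nM each, and RNA was collected 48 hours later. An siRNA guides the degradation of a matching messenger RNA and leaves a part of it, so these are knockdowns and not deletions. Each group had 3 libraries, 12 in all, and per the study the 3 replicates came from separate pooled litters, so P-values measure the spread between these cultures. The siRNA label of the double knockdown libraries names only the Wwtr1 siRNAs, and their group was taken from their titles. The design text speaks of cardiac myocytes and the title and labels of cardiac fibroblasts. The labels and the paper also differ in the serum content and in the time before transfection. In its section on RNA, the paper counts the 48 hours from a medium change made after transfection.

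Matricellular proteins are secreted into the extracellular matrix, where they act less as scaffold than as signals: they bind integrins, collagen and growth factors and alter adhesion, migration and the activation of TGF-beta. Cardiac fibroblasts make little of most of them in the resting adult heart and much more during development and after infarction, when the cells become myofibroblasts. Yap and its paralog Wwtr1 (also called Taz) are co-activators that enter the nucleus when cells are stretched or spread and act on DNA mostly through TEAD factors. The comparison asks which of these genes respond, in their RNA, to loss of Yap, of Wwtr1 or only of both.

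The DNA in front of 3 members whose RNA changed with the double knockdown is shown first. RefSeq promoter entries of rat build GRCr8 were found for 7 of the 10 members (Vcan with 2 starts). The windows are the 250 bases before the transcription start, read 5′ to 3′ on the strand of the gene. They were searched on both strands for GGAATG, the core that TEAD factors bind, for TGANTCA, the AP-1 site, and for TATAAA, the TATA box, and matches are in capitals. The Thbs1 window lies at chr3:125510000-125510249 (plus strand), that of Postn at chr2:140677811-140678060 (plus strand) and that of Tgfbi at chr17:7990114-7990363 (minus strand).
Thbs1: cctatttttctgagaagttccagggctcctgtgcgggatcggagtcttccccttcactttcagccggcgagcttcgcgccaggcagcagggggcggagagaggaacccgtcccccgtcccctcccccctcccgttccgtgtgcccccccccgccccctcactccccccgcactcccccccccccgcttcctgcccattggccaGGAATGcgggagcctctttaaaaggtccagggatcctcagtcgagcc
Postn: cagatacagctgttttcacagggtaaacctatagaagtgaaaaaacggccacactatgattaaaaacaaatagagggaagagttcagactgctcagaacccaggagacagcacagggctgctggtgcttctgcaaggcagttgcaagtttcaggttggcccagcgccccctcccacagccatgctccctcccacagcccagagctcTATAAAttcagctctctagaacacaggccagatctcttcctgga
Tgfbi: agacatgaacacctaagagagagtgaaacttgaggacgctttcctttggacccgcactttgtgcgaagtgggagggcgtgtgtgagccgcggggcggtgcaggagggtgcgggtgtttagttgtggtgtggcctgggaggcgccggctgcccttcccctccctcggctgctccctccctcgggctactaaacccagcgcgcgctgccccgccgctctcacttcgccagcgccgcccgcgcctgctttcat
The Thbs1 window held GGAATG from base 47 to base 42 before the start, and Sparc, which is not printed, was the other member with that motif. Among all 33469 promoters of this length 12.1% held GGAATG (10.1% of those of tested genes), so 2 of 8 member promoters are too few to read. The Postn window held TATAAA from base 44 to base 39 before the start, a motif found in 12.9% of all promoters and in 6.68% of those of tested genes. The windows of Tnc and Spp1 also held TATAAA, further upstream. The Tgfbi window held none of the 3 motifs, and TGANTCA, present in 6.34% of all promoters and 4.51% of those of tested genes, was in no member window. G and C made up 67.6% of the Thbs1 window, 65.6% of that of Tgfbi and 50.8% of that of Postn, beside a median of 51.2% over all promoters.

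The siRNAs lowered their targets. Negative siRNA cultures held 3267 ± 442 normalized counts of Yap1 (SD, n = 3), those given Yap siRNA 578 ± 46.8 and the double knockdown cultures 975 ± 432. For Wwtr1 the means were 2403 ± 146 in the control, 570 ± 59.3 after its own siRNA and 868 ± 168 in the double knockdown. In the double knockdown Yap1 fell by 70.1% and Wwtr1 fell by 63.9%, less than the falls after either siRNA alone, where Yap1 decreased by 82.3% and Wwtr1 decreased by 76.3%. Replicate 3 of the double knockdown kept more Yap1 (1474 normalized counts) than replicates 1 and 2 (713 and 739). That library stood apart in other ways too. Its chi-square per gene was 120.5 against replicate 1 and 112 against replicate 2, beside 27.0 between replicates 1 and 2, and its 15 macrophage and leukocyte markers summed to 59507 normalized counts, beside 8901 and 17598 in the other 2. The log2 changes of the genes named here and the counts of called genes and medians of each list with the double knockdown were therefore also computed without it. Group sums and counts of groups without overlap use all libraries. The 10 fibroblast markers (Col1a1, Col1a2, Pdgfra, Tcf21 and others) summed to between 2428100 and 3604810 normalized counts, with none at 0. Their sum was higher with Yap siRNA (3381380 to 3505600) than with negative siRNA (2718980 to 3190490) without overlap, with 0 of them called. The double knockdown called 3 higher and 2 lower, where 17.1% and 15.6% of all genes were called.

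The double knockdown changed 4 of the 10 genes. Postn, Thbs2 and Tgfbi rose and Thbs1 fell, whereas 32.8% of all genes tested were called (17.1% higher and 15.6% lower), so the share of members called was close to that of genes at large. Yap siRNA alone raised 1 member, Postn, where 4.8% of all genes were called (3.02% higher). Wwtr1 siRNA alone gave 0 calls by limma where 8.96% of all genes were called, and Thbs1 was the 1 member at an unadjusted P under 0.05. These groups were taken as paired by replicate number. A fit with the number as a block on their 9 libraries called 4 members with Yap siRNA and 3 with Wwtr1 siRNA, where 16.2% and 21.6% of all genes were called. When any 1 library was left out of the fit without the block, the share of all genes called ran from 0.935% (without Yap siRNA replicate 1) to 6.47% (without double knockdown replicate 3) with Yap siRNA and from 4.62% (without Wwtr1 siRNA replicate 2) to 12% (without double knockdown replicate 3) with Wwtr1 siRNA. The median log2 change of the 10 members was 0.26 with Yap siRNA, -0.11 with Wwtr1 siRNA and 0.14 with the double knockdown, where the median of all genes was -0.0041, 0.0047 and 0.0035. The members together took 2.87% to 3.26% of all normalized counts in each library, and this share overlapped between all groups. Without double knockdown replicate 3 the double knockdown again called 4 members, where 34.2% of all genes were called, and their median change turned to -0.095. These 3 comparisons share the negative siRNA libraries. In bulk RNA, fewer cells of a type and less RNA per cell cannot be told apart.

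**Figure D1:**
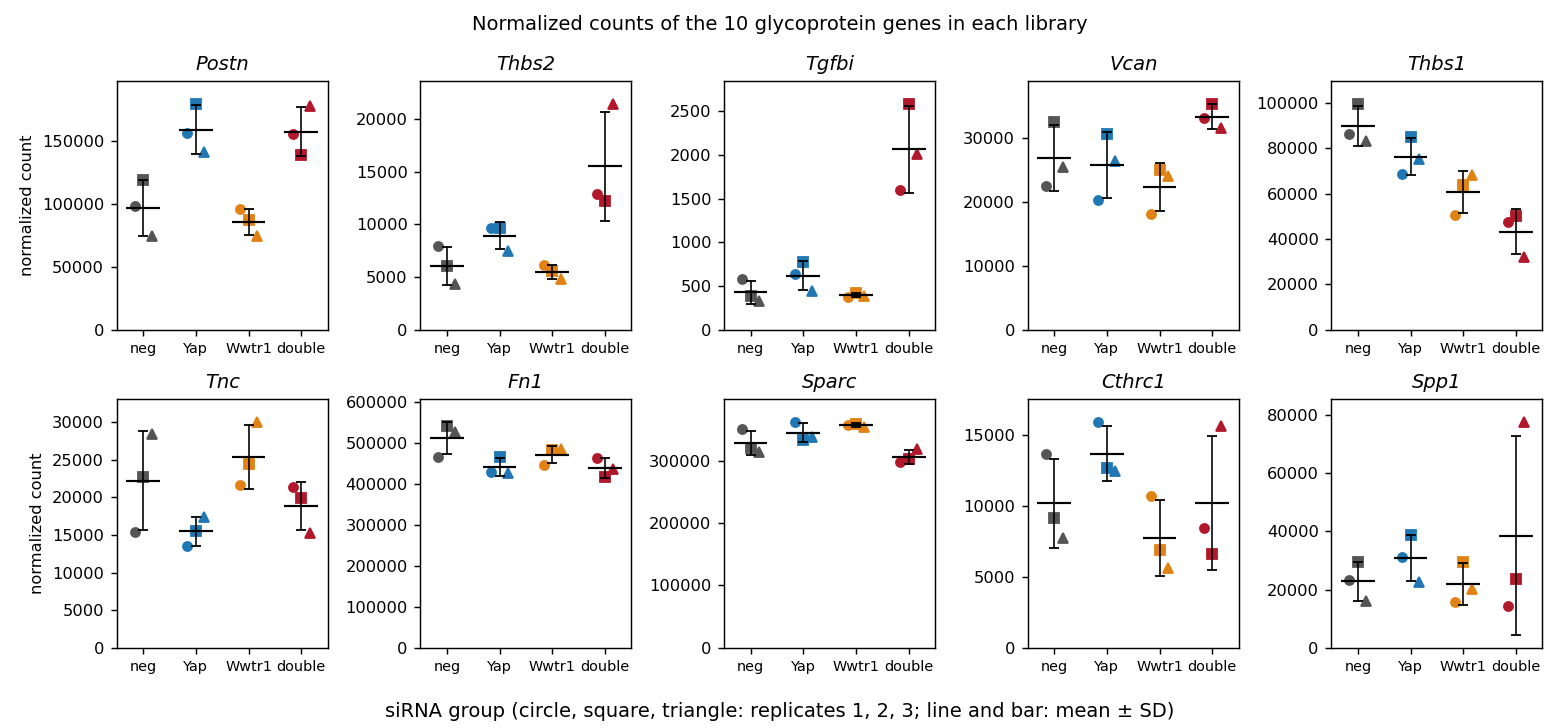
Normalized counts of each of the 10 genes (1 panel each, axes from 0) in the 12 libraries by siRNA group (neg, negative siRNA; double, double knockdown), with circles, squares and triangles for replicates 1, 2 and 3 and a line with bar for the mean ± SD. Postn is high with Yap siRNA and the double knockdown, Thbs2 and Tgfbi are highest with the double knockdown and Thbs1 is lowest there, while 1 double knockdown library (replicate 3) is far above the rest in Spp1 at 77571 normalized counts.

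**Figure D2:**
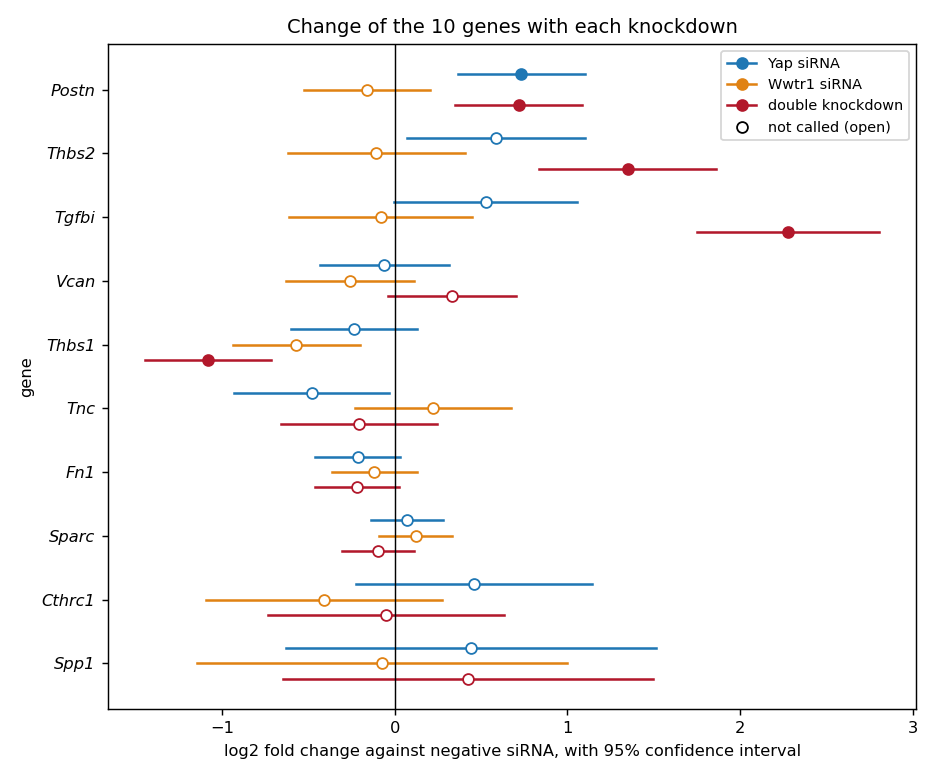
Log2 fold changes of the 10 genes against negative siRNA for Yap siRNA, Wwtr1 siRNA and the double knockdown, with 95% confidence intervals from limma over all 12 libraries and filled circles for adjusted P under 0.05. The 5 filled circles are Postn with Yap siRNA and Postn, Thbs2, Tgfbi and Thbs1 with the double knockdown, and Tgfbi lies farthest from 0 at 2.28.

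The 2 thrombospondins moved in opposite directions. Thbs1 and Thbs2 are paralogous secreted glycoproteins that bind CD36, CD47 and integrins and restrain blood vessel growth, and Thbs1 also activates latent TGF-beta. Thbs1 was at 86489, 99777 and 83190 normalized counts in negative siRNA replicates 1 to 3, at 68855, 85006 and 75252 with Yap siRNA, at 50592, 63777 and 68185 with Wwtr1 siRNA and at 47679, 49987 and 31909 with the double knockdown. All Wwtr1 siRNA and all double knockdown libraries were below every negative siRNA library, and the double knockdown libraries were also below every single knockdown library. With the double knockdown Thbs1 fell by 1.08 on the log2 scale (SE 0.17, adjusted P = 0.000563), a fold of 0.473. The change was -0.23 with Yap siRNA (adjusted P = 0.486) and -0.57 with Wwtr1 siRNA (adjusted P = 0.0564). The Wwtr1 value passed the threshold with the replicate number as a block (adjusted P = 0.0388), in the blocked fit without the double knockdown libraries (adjusted P = 0.000638) and when double knockdown replicate 3 was left out (adjusted P = 0.0105). The double knockdown was lower than Yap siRNA by a called difference (-0.84, adjusted P = 0.00744) and lower than Wwtr1 siRNA by one that missed the threshold (-0.51, adjusted P = 0.0512). The latter passed with the block (adjusted P = 0.0355) and without Wwtr1 siRNA replicate 1 (-0.64, adjusted P = 0.031) or double knockdown replicate 2 (-0.63, adjusted P = 0.0371), in 6 of 21 alternatives in all. Without double knockdown replicate 3 it shrank to -0.31 (adjusted P = 0.132).

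Thbs2 was at 7915, 6003 and 4314 normalized counts with negative siRNA, at 9673, 9643 and 7441 with Yap siRNA, at 6107, 5593 and 4815 with Wwtr1 siRNA and at 12901, 12199 and 21479 with the double knockdown. The double knockdown libraries were above all others, with replicate 3 the highest. Thbs2 rose 2.55-fold with the double knockdown, or 1.35 on the log2 scale (SE 0.23, adjusted P = 0.00119), and without replicate 3 the change was 1.09 (adjusted P = 0.002). It was higher than with Wwtr1 siRNA by 1.45 (adjusted P = 0.00172), and its difference from Yap siRNA, 0.76, missed the threshold (adjusted P = 0.0512) but passed without negative siRNA replicate 1 (adjusted P = 0.0396) or 3 (adjusted P = 0.0349) or double knockdown replicate 2 (0.91, adjusted P = 0.0486), in 5 of 21 alternatives in all. Without double knockdown replicate 3 it shrank to 0.50 (adjusted P = 0.118). With Yap siRNA the log2 change was 0.59 (adjusted P = 0.191). In the blocked fit without the double knockdown libraries that value was called (adjusted P = 0.0016). Yap and Wwtr1 siRNA differed by 0.69 (adjusted P = 0.0922), a difference that was called without double knockdown replicate 3 (adjusted P = 0.0327).

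Postn was high wherever Yap siRNA was given. Periostin, its product, crosslinks collagen fibrils and binds integrins, and the gene is the standard marker of activated cardiac fibroblasts. Postn was at 98331, 118994 and 74310 normalized counts with negative siRNA, at 156836, 180128 and 141507 with Yap siRNA, at 95853, 87071 and 74604 with Wwtr1 siRNA and at 155987, 139252 and 178157 with the double knockdown. Every library that received Yap siRNA, alone or with Wwtr1 siRNA, was above every library that did not. Postn rose 1.66-fold with Yap siRNA (log2 change 0.73, SE 0.17, adjusted P = 0.0334) and 1.64-fold with the double knockdown (0.72, SE 0.17, adjusted P = 0.00678). With Wwtr1 siRNA the log2 change was -0.16, with a 95% interval from -0.53 to 0.21 (adjusted P = 0.615). The difference between the single knockdowns passed the test itself: Postn was higher with Yap than with Wwtr1 siRNA by 0.89 (adjusted P = 0.00805), in a comparison where 8.79% of all genes were called and Postn was the 1 member called. Between the double knockdown and Yap siRNA the difference was -0.02, with an interval from -0.38 to 0.35. The call with Yap siRNA was lost when negative siRNA replicate 1 (0.76, adjusted P = 0.0712) or 3 (0.55, adjusted P = 0.122), Yap siRNA replicate 1 (0.74, adjusted P = 0.108) or 2 (0.64, adjusted P = 0.123), or Wwtr1 siRNA replicate 2 (0.73, adjusted P = 0.056) was left out. The call with the double knockdown was kept in all 12 such fits. In the same libraries the sum of 9 smooth muscle and pericyte markers, Acta2 and Tagln among them, with none at 0, ran from 493752 to 623395 with negative siRNA, 338517 to 423298 with Yap siRNA, 455141 to 559481 with Wwtr1 siRNA and 221749 to 361614 with the double knockdown. Singly the 9 markers went both ways: the double knockdown raised 2 (Kcnj8 and Rgs5) and lowered 3 (Acta2, Tagln and Notch3), with a median log2 change of 0.074, and Yap siRNA lowered 1 (Notch3), with a median of -0.12. The paper places Acta2 and Tagln together with Postn in a proposed secretory myofibroblast state, so these 2 do not mark smooth muscle alone. The part of these markers in the Postn values was not tested.

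Tgfbi rose most. Its product (also called keratoepithelin) is a TGF-beta-induced protein that is built of the same fasciclin domains as periostin and binds integrins and collagen. Tgfbi was at 578, 381 and 330 normalized counts with negative siRNA, at 635, 779 and 440 with Yap siRNA, at 378, 417 and 389 with Wwtr1 siRNA and at 1596, 2589 and 2008 with the double knockdown. The lowest double knockdown library was above the highest of the other 9. The rise with the double knockdown was 4.84-fold (log2 change 2.28, SE 0.24, adjusted P = 5.46e-05), beside 0.53 with Yap siRNA (adjusted P = 0.254) and -0.08 with Wwtr1 siRNA (adjusted P = 0.879). The double knockdown exceeded Yap siRNA by 1.75 (adjusted P = 0.00108) and Wwtr1 siRNA by 2.36 (adjusted P = 0.000148). In these comparisons 13.8% and 19.9% of all genes were called (9.75% higher in the latter), and 2 and 4 of the 10 members. The members called against Yap siRNA were Thbs1 and Tgfbi, and those called against Wwtr1 siRNA were Postn, Thbs2, Vcan and Tgfbi.

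Whether the double knockdown equals the sum of both single changes was tested as an interaction, called in 1.03% of all genes (0.261% to 1.35% when any 1 library was left out, lowest without Wwtr1 siRNA replicate 2). Tgfbi was the 1 member called: the sum of its single changes was 0.45 on the log2 scale and its double knockdown change 2.28, so the latter exceeded the sum by 1.83 (SE 0.34, adjusted P = 0.0311). The value stayed between 1.60 and 2.02 when any 1 library was left out, but the call was lost in 7 of those 12 fits, at adjusted P up to 0.0782: without negative siRNA replicate 1 (1.60) or 2 (1.90), Yap siRNA replicate 3 (1.60), Wwtr1 siRNA replicate 1 (1.80), 2 (1.87) or 3 (1.82), or double knockdown replicate 2 (1.65). It was also lost without the mean-variance trend (adjusted P = 0.0773). Thbs2 exceeded its sum by 0.87 (adjusted P = 0.258) and Vcan by 0.65 (adjusted P = 0.24). For Postn the excess was 0.14, with an interval from -0.37 to 0.66, and for Thbs1 it was -0.28, with an interval from -0.79 to 0.24. These were 0.054 and -0.071 without double knockdown replicate 3. Of the target RNAs, Wwtr1 was higher with the double knockdown than with Wwtr1 siRNA by a called 0.59 (adjusted P = 0.00804). Yap1 was higher than with Yap siRNA by 0.67, which missed the threshold (adjusted P = 0.0623, and 0.33 with 0.058 without double knockdown replicate 3). The difference in Yap1 was called without double knockdown replicate 1 (0.86, adjusted P = 0.0369) or 2 (0.83, adjusted P = 0.0486). The part of these differences in the interaction was not tested. By the stated amounts, cultures given siRNAs to both targets also received more siRNA in all. Effects of that amount and of losing both genes cannot be told apart in any comparison with the double knockdown.

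**Figure D3:**
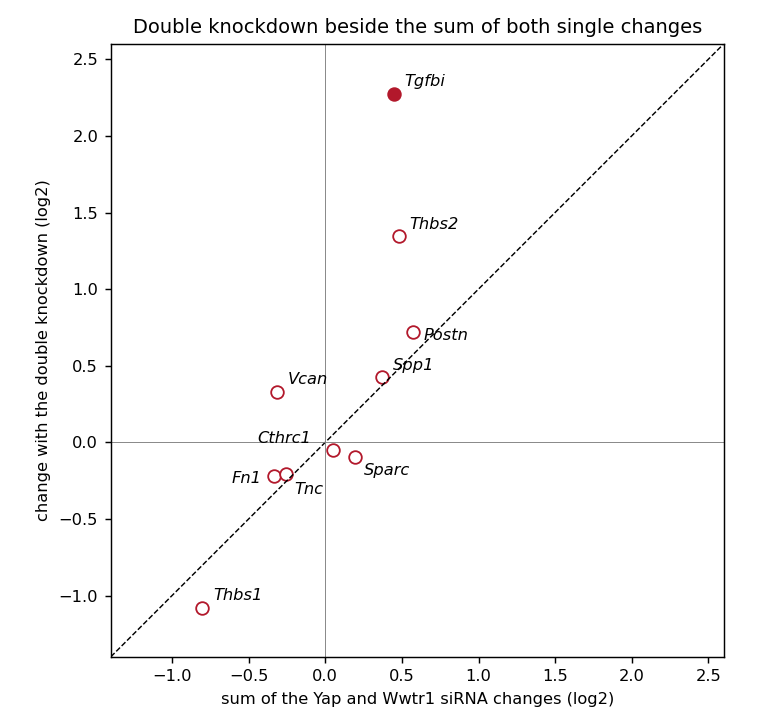
Log2 change of each of the 10 genes with the double knockdown (vertical axis) beside the sum of its changes with Yap siRNA and Wwtr1 siRNA alone (horizontal axis), with a dashed line where both are equal and a filled circle where the interaction was called. Tgfbi lies 1.83 above the line, Thbs2 0.87 and Vcan 0.65, and the other 7 genes lie closer to it.

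Vcan and Tnc encode large matrix proteins, and neither was called against negative siRNA in the fit over all 12 libraries without the block. Versican (Vcan) is a proteoglycan that binds hyaluronan and swells the provisional matrix. Vcan was at 22560, 32625 and 25471 normalized counts with negative siRNA, at 20394, 30721 and 26430 with Yap siRNA, at 18113, 25025 and 24151 with Wwtr1 siRNA and at 33169, 35471 and 31681 with the double knockdown. The double knockdown group was above both single knockdowns without overlap but overlapped negative siRNA. Its difference from Wwtr1 siRNA was called (0.59, SE 0.17, adjusted P = 0.0309). The call was lost without Wwtr1 siRNA replicate 1 (0.44, adjusted P = 0.103), without Wwtr1 siRNA replicate 3 (0.65, adjusted P = 0.0565) or without double knockdown replicate 1 (0.59, adjusted P = 0.0655) or 2 (0.55, adjusted P = 0.0863), and also without the mean-variance trend (adjusted P = 0.0572). Against negative siRNA the change was 0.33 (adjusted P = 0.159), and the block brought it under the threshold (adjusted P = 0.0288), although the double knockdown was not taken as paired with the other groups. The same held for its difference from Yap siRNA (0.39, adjusted P = 0.152, with the block 0.0264).

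Tenascin-C (Tnc) is a hexameric glycoprotein that weakens cell adhesion and appears at wound edges. Tnc was at 15417, 22771 and 28489 normalized counts with negative siRNA, at 13568, 15520 and 17454 with Yap siRNA, at 21657, 24404 and 30061 with Wwtr1 siRNA and at 21430, 19875 and 15220 with the double knockdown. Yap siRNA libraries were all below the Wwtr1 siRNA libraries, while both groups overlapped negative siRNA. The Yap and Wwtr1 siRNA groups differed by -0.70 on the log2 scale (SE 0.21), which missed the threshold in the fit over all libraries (adjusted P = 0.0556) and passed with the block (adjusted P = 0.0465). It also passed without negative siRNA replicate 1 (adjusted P = 0.0257) or 3 (adjusted P = 0.0388) or double knockdown replicate 3 (adjusted P = 0.0355). The changes against negative siRNA were -0.48 with Yap siRNA (adjusted P = 0.223), 0.22 with Wwtr1 siRNA (adjusted P = 0.563) and -0.21 with the double knockdown (adjusted P = 0.475). The last of these was -0.062 without double knockdown replicate 3 (adjusted P = 0.85).

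Fn1 and Sparc differed little between groups. Fibronectin (Fn1) is the glycoprotein on which cells first assemble matrix, and Sparc encodes osteonectin, which binds collagen and aids its secretion and folding. Fn1 was at 467101, 542436 and 526954 normalized counts with negative siRNA, at 428526, 466112 and 427675 with Yap siRNA, at 447166, 482414 and 485088 with Wwtr1 siRNA and at 463876, 416291 and 437523 with the double knockdown. Its double knockdown and Yap siRNA libraries were all below the lowest negative siRNA library by a small margin. Sparc was at 350970, 320124 and 313718 with negative siRNA, at 362339, 333298 and 338652 with Yap siRNA, at 357731, 359128 and 353774 with Wwtr1 siRNA and at 298031, 302479 and 319385 with the double knockdown. None of the 7 comparisons was called for either gene over all 12 libraries. Without the mean-variance trend, Sparc was called lower with the double knockdown than with Wwtr1 siRNA (-0.22, adjusted P = 0.0462, beside 0.131 with the trend). The 95% interval of the double knockdown change ran from -0.46 to 0.02 for Fn1 and from -0.31 to 0.11 for Sparc, so log2 changes beyond these bounds lie outside the intervals.

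Spp1 and Cthrc1 varied widely within the double knockdown group, and neither was called in any comparison over all 12 libraries. Osteopontin (Spp1) binds integrins and CD44 and is made by macrophages as well as by activated fibroblasts. Spp1 was at 23209, 29395 and 15944 normalized counts with negative siRNA, at 31184, 38573 and 22677 with Yap siRNA, at 15627, 29580 and 20270 with Wwtr1 siRNA and at 14432, 23464 and 77571 with the double knockdown. All groups overlapped, and double knockdown replicate 3 was 4.09 times the mean of replicates 1 and 2. The log2 change with the double knockdown was 0.42 (SE 0.49, adjusted P = 0.547), and without replicate 3 it was -0.27 (adjusted P = 0.55). The 15 macrophage and leukocyte markers (Cd68, Csf1r, Adgre1, C1qa and others) were 4.49 times as high in that replicate as the mean of the other 2. Their sum ran from 28415 to 40451 with negative siRNA, 24351 to 35915 with Yap siRNA, 15303 to 24656 with Wwtr1 siRNA and 8901 to 59507 with the double knockdown, where Cx3cr1 was listed at 0 in replicate 1. The part of these markers in the Spp1 values was not tested.

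**Figure D4:**
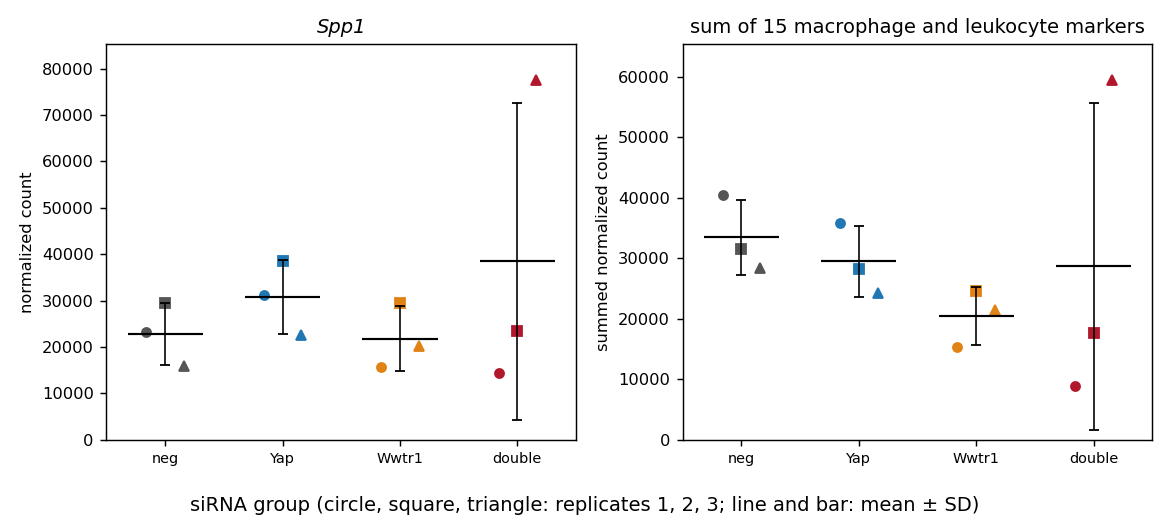
Spp1 (left) and the sum of 15 macrophage and leukocyte markers (right), both in normalized counts, in each library by siRNA group (neg, negative siRNA; double, double knockdown), with symbols for the replicate number and a line with bar for the mean ± SD. In double knockdown replicate 3 both reach their highest value (77571 and 59507 normalized counts), and in double knockdown replicate 1 both are at their lowest (14432 and 8901).

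Cthrc1 (collagen triple helix repeat containing 1) is secreted by activated fibroblasts and marks scar-forming cells. Cthrc1 was at 13679, 9112 and 7737 normalized counts with negative siRNA, at 15924, 12682 and 12461 with Yap siRNA, at 10706, 6877 and 5594 with Wwtr1 siRNA and at 8416, 6628 and 15594 with the double knockdown. Yap siRNA libraries were above all Wwtr1 siRNA libraries, and the double knockdown spanned most of the range. The changes against negative siRNA were 0.46 (adjusted P = 0.459), -0.41 (adjusted P = 0.474) and -0.05 (adjusted P = 0.923) in that order, and the Yap and Wwtr1 siRNA groups differed by 0.87 (adjusted P = 0.11). Without double knockdown replicate 3, which had 2.07 times the Cthrc1 of the mean of the other 2, the double knockdown change was -0.40 (adjusted P = 0.268). In that fit the double knockdown was below Yap siRNA by a called difference (-0.86, adjusted P = 0.0495, beside -0.51 and 0.31 with all libraries), and the difference between Yap and Wwtr1 siRNA was called as well (adjusted P = 0.0376).

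Same-numbered libraries of the negative, Yap and Wwtr1 siRNA groups deviated together weakly (correlations of 0.104 to 0.276) and were taken as paired. A fit with the number as a block, on these 9 libraries alone, separated the 2 single knockdowns at 8 of the 10 members, where 22.8% of all genes were called. The same 9 libraries without the block gave 4 (Postn, Tnc, Thbs2 and Cthrc1), where 11.1% were called, and the block on all 12 libraries gave 2, where 10.6% were called. Postn (0.89, adjusted P = 9.32e-05), Cthrc1 (0.87, adjusted P = 0.000127), Thbs2 (0.69, adjusted P = 0.000518), Tgfbi (0.61, adjusted P = 0.0332), Spp1 (0.51, adjusted P = 0.0213), Thbs1 (0.33, adjusted P = 0.0135) and Vcan (0.20, adjusted P = 0.0412) were higher with Yap siRNA and Tnc (-0.70, adjusted P = 0.000344) was lower. In all 3 pairs of same-numbered libraries those 7 genes were higher with Yap than with Wwtr1 siRNA, beside 26.5% of all genes, and Fn1 and Tnc were lower, beside 26.9%. Cthrc1 was 1.49, 1.84 and 2.23 times as high with Yap siRNA in numbers 1, 2 and 3. The same blocked fit called 4 members with Yap siRNA against negative siRNA (Postn, Thbs2 and Cthrc1 higher and Tnc lower), where 16.2% of all genes were called. With Wwtr1 siRNA it called 3 members (Thbs1, Vcan and Cthrc1, all lower), where 21.6% were called. Without overlap between the groups, irrespective of number, 6 members differed between Yap and Wwtr1 siRNA, beside 31.9% of all genes.

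**Figure D5:**
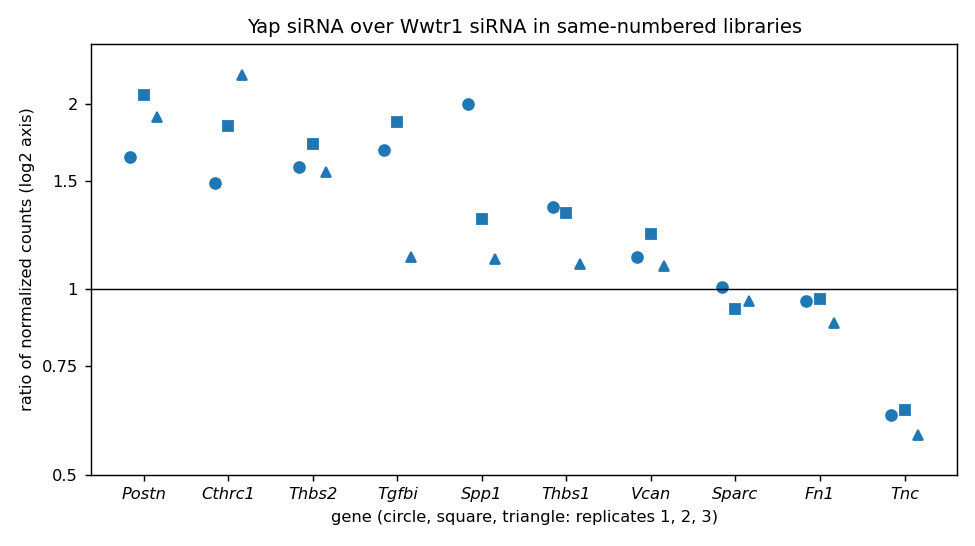
Ratio of normalized counts with Yap siRNA over Wwtr1 siRNA in the 3 pairs of same-numbered libraries for each of the 10 genes, on a log2 axis, with circles, squares and triangles for numbers 1, 2 and 3 and a line at 1. All 3 ratios are above 1 for 7 genes, led by Cthrc1 (1.49 to 2.23) and Postn (1.64 to 2.07), and below 1 for Fn1 and Tnc.

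In the other comparisons of groups, libraries did not overlap for 2 members with Yap siRNA (Postn and Fn1, beside 26.1% of all genes) and for 2 with Wwtr1 siRNA (Thbs1 and Sparc, 32.7%). With the double knockdown they did not overlap for 5 members against negative siRNA (44.6%), for 5 against Yap siRNA (30.5%) and for 7 against Wwtr1 siRNA (37.3%).

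The genes around these proteins were followed as lists. Of 29 related matricellular and glycoprotein genes tested (other thrombospondins, a fibulin, a nidogen, hyaluronan synthases and the like), the double knockdown raised 10 and lowered 4, where 17.1% and 15.6% of all genes were called. The median log2 change was 0.81 beside 0.0035 over all genes, while the summed normalized counts of the list overlapped (308271 to 332682 with negative siRNA and 275980 to 378531 with the double knockdown). Leaving out double knockdown replicate 3 gave 8 higher and 5 lower and a median of 0.52, where 17% of all genes were called higher and 17.3% lower. Of its called genes that averaged 100 normalized counts or more, the largest rises were in Fbln1 (fibulin-1, 2.42, adjusted P = 0.00282), Fgl2 (2.09, adjusted P = 6.71e-05) and Mgp (matrix Gla protein, which inhibits calcification, 1.66, adjusted P = 0.0048). Without double knockdown replicate 3 these rises were 1.83, 2.40 and 1.42, so Fgl2 then stood above Fbln1. Within the same limit, the largest called falls were in Fstl1 (a secreted follistatin-like protein, -0.87, adjusted P = 0.000124), Mfge8 (an integrin-binding bridge to dying cells, -0.69, adjusted P = 0.00145) and Nid2 (nidogen-2 of basement membranes, -0.61, adjusted P = 0.0102). Yap siRNA raised 1 gene of the list, Fgl2, by 1.07 (adjusted P = 0.0258), where 3.02% of all genes were called higher. Wwtr1 siRNA raised 2 and lowered 2, where 8.96% of all genes were called, with Fgl2 at 0.88 (adjusted P = 0.0349), Fstl1 at -0.51 (adjusted P = 0.0115) and Ecm1 at -0.46 (adjusted P = 0.0216). Emilin1, an elastic fibre protein, was the gene of the list with a called interaction (0.63, adjusted P = 0.0311).

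Of 21 integrins, syndecans and other receptors tested, the double knockdown raised 4 and lowered 4, where 17.1% and 15.6% of all genes were called, so the share called was near that of genes at large. The median log2 change was 0.19, while the summed normalized counts were lower without overlap (230091 to 253521, beside 263115 to 280744 with negative siRNA). When double knockdown replicate 3 was left out, 5 were higher and 5 lower, beside 17% and 17.3% of all genes, with a median of 0.061. Itga4 and Itgb1, which pair as a fibronectin and osteopontin receptor, fell by 1.71 (adjusted P = 0.000209) and 1.00 (adjusted P = 0.000142), and Sdc2 fell by 0.72 (adjusted P = 0.000855). Itga5, the partner of Itgb1 in the main fibronectin receptor, rose by 0.68 (adjusted P = 0.00408), Egfr by 0.91 (adjusted P = 0.000819) and Lrp1, which clears thrombospondins, by 0.68 (adjusted P = 0.00118). Sdc2 had a called interaction (-0.82, adjusted P = 0.0455). With Wwtr1 siRNA alone, where 5% of all genes were called higher, 3 receptors rose: the heparan sulfate proteoglycan Sdc4 by 1.01 (adjusted P = 0.0023), Itga3 by 0.87 (adjusted P = 0.00256) and Cd47, a receptor of Thbs1, by 0.50 (adjusted P = 0.0332). Yap siRNA, with 4.8% of all genes called, gave 0 calls among them by limma, with 6 at an unadjusted P under 0.05.

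Of 13 proteases that cut versican, fibronectin or osteopontin, the double knockdown raised 4 and the other 9 did not pass the test, where 17.1% of all genes were called higher. The median log2 change was 0.10, and the summed normalized counts were higher without overlap (202325 to 271008, beside 153070 to 170015 with negative siRNA). The list had 4 higher and 2 lower and a median of -0.043 without double knockdown replicate 3, beside 17% and 17.3% of all genes. Adamts4, a versican-cleaving protease, rose by 1.93 (adjusted P = 1.3e-05), Mmp2 by 0.85 (adjusted P = 0.000209) and Mmp14, which activates Mmp2, by 0.42 (adjusted P = 0.009). Mmp2 exceeded the sum of its single changes by 1.12 (adjusted P = 0.0103). Adamts4 was also the 1 protease called with Yap siRNA (0.73, adjusted P = 0.0291), and Adamts9 the 1 called with Wwtr1 siRNA (0.55, adjusted P = 0.0178), where 3.02% and 5% of all genes were called higher.

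Of 15 TGF-beta ligands, receptors and Smads, the double knockdown raised 4 and lowered 7, where 17.1% and 15.6% of all genes were called, with a median log2 change of -0.27. The summed normalized counts were lower without overlap (96838.5 to 107765, beside 139922 to 168542 with negative siRNA). The counts were again 4 higher and 7 lower without double knockdown replicate 3, beside 17% and 17.3% of all genes, with a median of -0.39. The ligands Tgfb3 and Tgfb2 fell by 1.45 (adjusted P = 0.000355) and 1.38 (adjusted P = 0.000648), and the latent TGF-beta binding protein Ltbp2 by 1.01 (adjusted P = 0.0156). The co-receptor Tgfbr3 rose by 1.92 (adjusted P = 0.000158), the receptor Tgfbr2 by 0.85 (adjusted P = 0.00514) and the transducer Smad3 by 0.66 (adjusted P = 9.38e-05). Yap siRNA lowered Tgfb2 (-0.92, adjusted P = 0.0387) and Tgfb3 (-0.91, adjusted P = 0.0342) and raised Smad3 (0.34, adjusted P = 0.0329), where 4.8% of all genes were called. Wwtr1 siRNA raised Smad3 (0.69, adjusted P = 0.000655) and lowered Smad2 (-0.31, adjusted P = 0.0233), where 8.96% were called. When any 1 library was left out, 1 of the 21 double knockdown calls named in these lists was lost, that of Ltbp2 without negative siRNA replicate 3 (-0.89, adjusted P = 0.0638). Without double knockdown replicate 3 its change was -0.65 (adjusted P = 0.028). All 5 calls named with Yap siRNA were lost in 4 to 6 of the 12 such fits, 6 of the 9 named with Wwtr1 siRNA (all but Sdc4, Itga3 and Smad3) in up to 5, and the interactions of Emilin1 and Sdc2 in 10 each.

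Markers of further cell types were summed in the same way. Cardiomyocyte markers ran from 43001 to 94081 normalized counts over all libraries with none at 0. Endothelial markers ran from 1258 to 1676 with negative siRNA, 1785 to 2089 with Yap siRNA, 1686 to 1791 with Wwtr1 siRNA and 2109 to 2971 with the double knockdown, with Emcn and Cldn5 at 0 in several libraries. The double knockdown called 5 of these 10 higher and 0 lower, where 17.1% of all genes were called higher. Their median log2 change was 0.85, beside 0.0035 over all genes. Mesothelial markers ran from 1182 to 2212. The part of these cells in the values of the 10 genes was not tested.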

How the data were processed

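The authors trimmed reads with Trim Galore 0.6.5, aligned them to rat build rn6 with HISAT2, assembled transcripts with StringTie and normalized with DESeq2. The deposited signal values are normalized counts per gene symbol. All value columns were matched to a sample (0 unmatched). Within each library all values were whole multiples of 1 step (tolerance 0.01), with totals of 33.9 to 41.1 M steps, and whether a step is a read is not known, so count models were not run. Strand use in counting was not stated. The other deposited tables hold the authors' own log2 fold changes and p-values and were not used.

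Normalized counts were tested with limma 3.58.1 in R 4.3.3 on log2(value + 1) (lmFit, contrasts, eBayes with trend), with all 12 libraries in 1 fit, for genes with a mean of at least 10. P-values are two-sided and Benjamini-Hochberg adjusted over 11871 genes in each of 7 comparisons, with a threshold of 0.05. The steps were checked on simulated data. Fold changes understate the change of low genes.

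Members and lists were chosen with earlier results of these data known. Named genes were Yap1, Wwtr1, all members, up to 3 called rises and 3 called falls per list and comparison with negative siRNA at a mean of at least 100, and list genes with a called interaction. Replicate numbers in the titles were checked for pairing: 9 correlations of deviations from group means among negative, Yap and Wwtr1 siRNA ran from 0.104 to 0.276, above the limit of 0.1, so these groups were taken as paired. With the double knockdown they ran from -0.127 to 0.180, and that group was not taken as paired. Its highest value, with Wwtr1 siRNA in number 1, was above the limit. Libraries of different number were not correlated, so the limit has no such reference. As alternatives the pseudocount was set to 0.1 or 10, the filter, the scaling (upper-quartile, TMM), the groups in the fit and the trend were changed, a replicate block was added, and each library was left out in turn. Promoter sequences are from RefSeq (GRCr8), and no coordinates of rn6 are given.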

Additional observations from a re-analysis of the deposited data

Results flagged for a closer look

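Tgfbi was singled out because its response to Wwtr1 siRNA depended on whether cells also received Yap siRNA. By the limma interaction, the response in those cells exceeded the response in cells without it by 1.83 on the log2 scale (SE 0.34, adjusted P = 0.0311). The call was lost in 8 of 20 alternatives, 7 of the 12 fits without 1 library and the fit without the mean-variance trend (adjusted P = 0.0773), at adjusted P up to 0.0782. No technical or biological explanation was tested.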

How the results depend on the processing

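None of the 13 called values of the 10 genes changed direction in any alternative. The double knockdown calls of Postn, Thbs1, Thbs2 and Tgfbi against negative siRNA passed under every alternative run. For Yap siRNA against negative siRNA, 1 member was called over all libraries (4.8% of all genes), 0 with the compared groups only (4.04%), 0 without the mean-variance trend (2.48%), 4 with the replicate block on the 9 other libraries alone (no double knockdown, 16.2%), and 0 to 1 when any 1 library was left out (0.935% to 6.47%). For Wwtr1 siRNA the count went from 0 (8.96%) to 1 with the compared groups only (10.8%), to 1 with the replicate block (11.1%), to 3 with the block on those 9 libraries (21.6%), and to between 0 and 1 with 1 library left out (4.62% to 12%). For Yap against Wwtr1 siRNA it went from 1 (8.79%) to 2 at a mean of at least 100 (11.1%), to 4 with the compared groups only (8.29%), to 2 with the block (10.6%), to 8 with the block on those 9 libraries (22.8%), and to between 1 and 4 with 1 library left out (3.66% to 11.9%). The interaction count was 0 without the trend (0.505%) and 0 to 1 with 1 library left out (0.261% to 1.35%). On the same 9 libraries without the block, the count was 1 for Wwtr1 siRNA (11.3%) and 4 for Yap against Wwtr1 siRNA (11.1%). The cause of these changes was not tested. The block changed no other call of a member than those given in the text. Uncalled changes that crossed 0 when 1 library was left out ran as follows on the log2 scale. With Yap siRNA, Wwtr1 ran from -0.092 to 0.022 and Vcan from -0.19 to 0.10. With Wwtr1 siRNA, Yap1 ran from -0.097 to 0.073, Tnc from -0.019 to 0.42, Thbs2 from -0.33 to 0.11, Spp1 from -0.32 to 0.14 and Tgfbi from -0.25 to 0.15. With the double knockdown, Spp1 ran from -0.27 to 0.95 and Cthrc1 from -0.40 to 0.21. Against Yap siRNA, the double knockdown ran from -0.045 to 0.036 for Fn1, -0.11 to 0.076 for Postn and -0.71 to 0.50 for Spp1, and against Wwtr1 siRNA from -0.20 to 1.02 for Spp1. Interactions ran from -0.014 to 0.33 for Postn, -0.15 to 0.29 for Tnc, -0.64 to 0.57 for Spp1 and -0.46 to 0.16 for Cthrc1. Fits with edgeR, DESeq2 and TMM on recovered reads were not run, because it is not known whether a step of the values is a read. TMM scaling of the normalized values, the fit on 9 libraries without the block and leaving out double knockdown replicate 3 were chosen after seeing the data. Without the mean-variance trend the Vcan call against Wwtr1 siRNA was lost (adjusted P = 0.0572) and Sparc was called there (-0.22, adjusted P = 0.0462).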
